A study of Mus musculus with 9 samples.

Results

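Integrins, laminins, the molecules that tie laminins into the basement membrane and the proteins that link integrins to the cytoskeleton were compared between Lef1KI and WT cells. Members were taken by symbol, with no measured value used, as every row of the deposited table whose name begins with an integrin, laminin, tensin, kindlin or parvin stem or is that of a nidogen, perlecan (Hspg2), agrin, dystroglycan, a talin, Ilk, Pxn, Ptk2, Cd151, Bcam, Dst or Plec. This gave 54 of the 13336 rows, under 52 symbols because Dst stands for 3 gene IDs. A further 15 genes whose GENCODE M21 names match, among them Lama1, Lamc3, Itga4 and Itgb7, had no row among the 13336 analysed. The Lef1KI group (5 libraries) came from mice with ACTA2-CreERT2, a tamoxifen-inducible Cre under the promoter of the smooth muscle actin gene, and Lef-1KI+/+, an allele that expresses the Wnt-responsive transcription factor Lef1. The WT group (4 libraries) came from ACTA2-CreERT2:ROSA-TG mice, so the Cre was present in both groups. Tamoxifen was given to the mice of both groups for 5 days, with age and sex not given in the sources used here. Each library is a pool of tracheal gland cells from 3 to 5 mice. The cells were cultured to passage 1 on a laminin-rich coating, left on the plastic by medium from 804G cells, with 10 µM Y-27632 and 1 µM each of DMH-1, A83-01 and CHIR 99021; the last 3 inhibit BMP receptors, TGF-beta receptors and GSK3. By the labels these are myoepithelial cells marked by lineage. The sort kept GFP- cells in Lef1KI and GFP+ cells in WT, so that gate and genotype cannot be told apart.

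Myoepithelial cells sit on the basement membrane of a gland and contract around its secretory cells. Integrins are heterodimers of an alpha and a beta subunit that bind matrix outside the cell. Laminins are trimers of an alpha, a beta and a gamma chain that assemble into the sheet of the basement membrane and are tied to its collagen IV network by nidogens. Basal epithelial cells make laminin-332, which holds Lama3 and Lamb3, and bind it with integrin α6β4 in hemidesmosomes, which plectin and dystonin connect to keratin filaments, and with α3β1 in focal adhesions, which talins, kindlins, tensins and the Ilk complex connect to actin. Laminins with the alpha chains Lama2 or Lama4 are known from muscle, mesenchymal cells and vessels.

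Lef1, the gene of the knock-in, had 139 to 312 TPM (a transcript abundance scaled for transcript length and library size) in Lef1KI libraries and 0.38 to 0.55 TPM in WT libraries. Each difference is the Lef1KI mean less the WT mean of log2(TPM + 1), a scale that understates changes of low genes, and a gene is said to rise or fall at a limma adjusted p under 0.05 over all 13336 genes. At that threshold 898 genes rose (6.73% of those tested) and 165 fell (1.24%), 7.97% in either direction, so that 84.5% of the changes were rises; with each library centred on its median the share was 64.6%, and with trimmed-mean scaling it was 71.3%. The median difference of all genes was 0.14 as deposited and −0.018 with median centring, and differences of that size are the background for every value below. An unadjusted p under 0.05 in limma was reached by 3169 of the 13336 genes. Depth is unknown, since TPM values keep no read counts. The basal keratin genes Krt5 and Krt14 lay between 5308 and 10540 TPM in every library and Trp63 between 92.6 and 124 TPM. The smooth muscle genes Tagln and Myl9 lay between 1.66 and 14.1 TPM. The myoepithelial genes Cnn1 and Oxtr had no row among the 13336 analysed. Acta2 had 30.1, 77.6, 106, 62.1 and 35.6 TPM in Lef1KI and 148, 109, 176 and 83.2 TPM in WT (log2 difference −1.13 ± 0.36 SE, limma adjusted p 0.0834). Of the 10 basal and myoepithelial markers measured, 2 rose (Mylk and Cdh3) and 0 fell.

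Of the 54 members 10 rose (against the 6.73% of all genes), 1 fell (against 1.24%) and 43 did not pass. The rises were the laminin chains Lama4, Lama2 and Lamb1, the nidogens Nid1 and Nid2, the integrin subunits Itga8, Itga9 and Itgb3, the kindlin Fermt2 and 1 of the gene models named Dst, and the fall was the tensin Tns4. The median difference of the 54 was 0.25 beside 0.14 for all genes, and 79.6% of members had a positive difference beside 69.6% of all genes. Under median centring 35 of the 54 were positive, not 43, as were 35 under trimmed-mean scaling, and the members' median was 0.095 and 0.12, beside −0.018 and 0.014 for all genes. Every Lef1KI library lay above every WT library for 12 members, and below every WT library for 0; among all genes the shares were 10.0% and 1.89%, and 11.9% in either direction. By role, 3 of 9 laminin chains, 2 of 4 basement membrane linkers, 2 of 12 integrin alpha and 1 of 7 integrin beta subunits, 1 of 4 plakin rows, 1 of 4 talins and kindlins, 1 of 4 tensins, 0 of 3 laminin receptors and tetraspanins and 0 of 4 members of the Ilk, parvin, FAK and paxillin group passed the threshold.

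**Figure D1:**
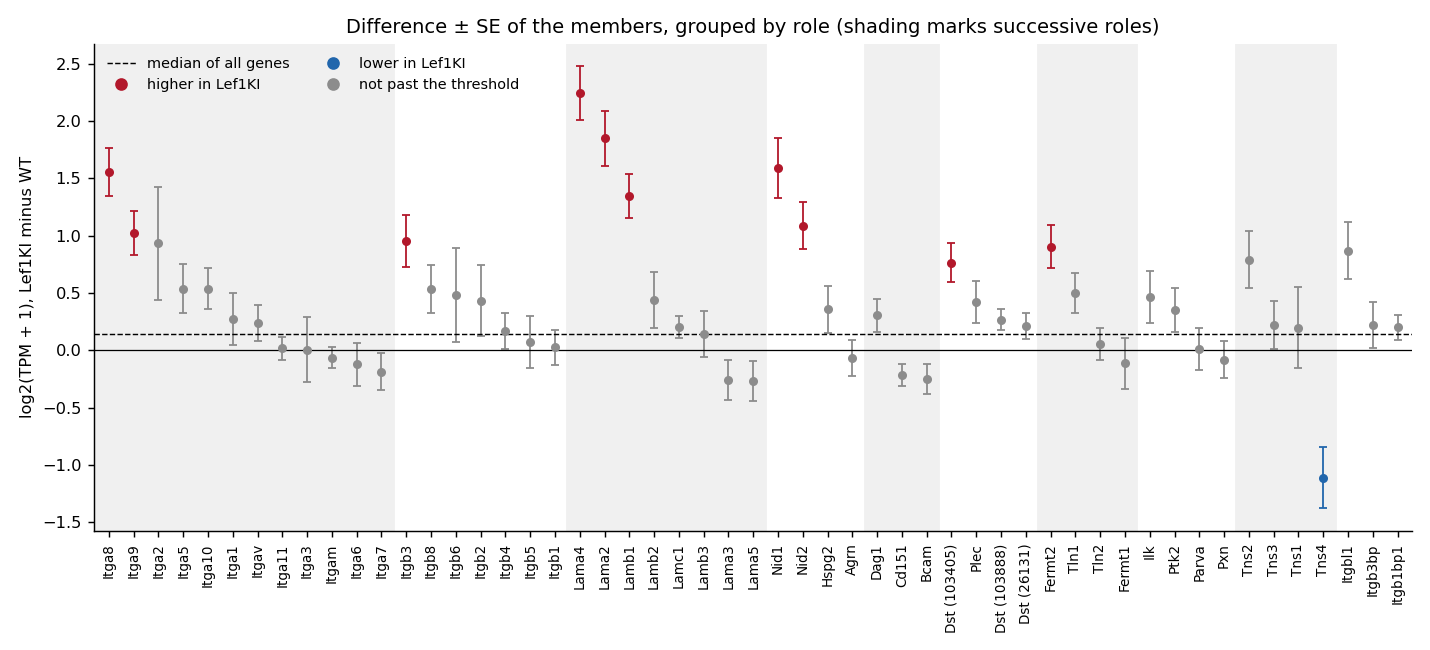
Difference between Lef1KI and WT on the log2(TPM + 1) scale for the members reported by name, with points for the estimate, bars for its SE, and columns grouped by role from integrin alpha subunits on the left to non-subunits on the right; the dashed line is the median of all genes. The 10 rises reach from 0.76 to 2.25, Tns4 is the 1 fall at −1.11, and the other members lie between −0.27 and 0.94.

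Promoter sequences (250 bases before to 50 after a start site) were available from RefSeq on GRCm38.p6 for 36 of the 52 member symbols, 44 promoters in all, and for 6 of the 10 members that rose, of which the Itga9 window lies 105002 bases inside the gene. They are shown for Lamb1, Nid1, Itga8 and Lama2, which rose and stand for the laminin, nidogen and integrin results, with the letters CTTTGA or their reverse complement TCAAAG in capitals, the core of the sequence that Lef1 and other TCF proteins bind. The window of Lamb1 is chr12:31265043-31265342 on the plus strand, of Nid1 chr13:13437352-13437651 on the plus strand, of Itga8 chr2:12301895-12302194 on the minus strand and of Lama2 chr10:27616893-27617192 on the minus strand. The RefSeq start sites lie 59, 51 and 22 bases from the GENCODE gene start for Lamb1, Nid1 and Itga8, but 2816 bases inside the gene for Lama2.
Lamb1: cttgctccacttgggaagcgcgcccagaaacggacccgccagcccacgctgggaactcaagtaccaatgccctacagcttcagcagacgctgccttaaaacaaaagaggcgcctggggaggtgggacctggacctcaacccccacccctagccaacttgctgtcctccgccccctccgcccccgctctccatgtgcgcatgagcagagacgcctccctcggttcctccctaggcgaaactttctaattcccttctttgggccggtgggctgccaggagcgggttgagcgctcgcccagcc
Nid1: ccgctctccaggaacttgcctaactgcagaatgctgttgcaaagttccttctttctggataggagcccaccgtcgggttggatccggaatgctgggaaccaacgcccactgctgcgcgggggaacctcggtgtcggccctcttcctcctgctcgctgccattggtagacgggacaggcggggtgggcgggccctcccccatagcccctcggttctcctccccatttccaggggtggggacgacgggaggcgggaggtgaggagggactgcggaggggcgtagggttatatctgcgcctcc
Itga8: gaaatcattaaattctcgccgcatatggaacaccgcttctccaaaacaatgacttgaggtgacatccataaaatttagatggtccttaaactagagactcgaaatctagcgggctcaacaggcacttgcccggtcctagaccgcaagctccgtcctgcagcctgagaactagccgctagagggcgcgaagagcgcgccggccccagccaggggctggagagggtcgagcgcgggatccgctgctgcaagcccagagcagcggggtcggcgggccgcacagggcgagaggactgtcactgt
Lama2: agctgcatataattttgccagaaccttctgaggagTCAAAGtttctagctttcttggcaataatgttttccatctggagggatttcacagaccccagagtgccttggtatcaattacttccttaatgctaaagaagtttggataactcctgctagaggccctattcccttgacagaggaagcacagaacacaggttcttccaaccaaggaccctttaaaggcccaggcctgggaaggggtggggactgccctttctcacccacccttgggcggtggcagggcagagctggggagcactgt

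Of these 4 windows only that of Lama2 holds the letters, as TCAAAG beginning 215 bases before the start site. Of the promoters of the 6 members that rose, 1 (16.7%) holds them, as do 6 of the 44 member promoters (13.6%), 11.6% of the promoters of genes in the table and 16.0% of all 32851 promoters. The longer form CTTTGAT, searched on both strands and always containing the shorter one, was in 0 of the 44 member promoters and in 3.73% of all. The Lamb1, Nid1 and Itga8 windows hold 18, 20 and 23 CpG dinucleotides and that of Lama2 holds 1, where the median of all promoters is 7. A match describes letters in these windows and not a bound site.

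The laminin alpha chains of mesenchymal and vascular basement membranes and the widespread beta chain Lamb1 rose in Lef1KI, while Lama3 and Lamb3 of epithelial laminin-332 did not pass. Lama4, the alpha chain of vessel and mesenchymal laminins (chr10:38965515-39110188, mm10), had 32.8, 17.9, 30.2, 23.2 and 14.2 TPM in Lef1KI libraries A to E, against 3.83, 3.58, 4.16 and 4.35 TPM in WT libraries A, B, E and D, the order of libraries kept throughout. The lowest Lef1KI library was above the highest WT library (log2 difference 2.25 ± 0.23 SE, limma adjusted p 0.000534). Lama2 encodes the alpha chain of muscle laminin (chr10:26980036-27619758). It had 9.61, 4.47, 10.4, 7.34 and 4.55 TPM in Lef1KI and 1.25, 0.95, 1.12 and 1.46 TPM in WT. These groups did not overlap either, and libraries B and E were the lowest of Lef1KI for Lama2 as for Lama4 (log2 difference 1.85 ± 0.24 SE, limma adjusted p 0.00143). Lamb1, the beta chain that these alpha chains share with Lama5 (chr12:31265234-31329644), had 39.9, 32.8, 59.8, 56.9 and 54.7 TPM in Lef1KI and 20.1, 20.3, 14.4 and 18.3 TPM in WT, again without overlap (log2 difference 1.35 ± 0.19 SE, limma adjusted p 0.00235). All 3 kept their calls whichever library was left out and under the 7 other settings tried. More cells of a type and more RNA per cell cannot be told apart in these bulk libraries.

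**Figure D2:**
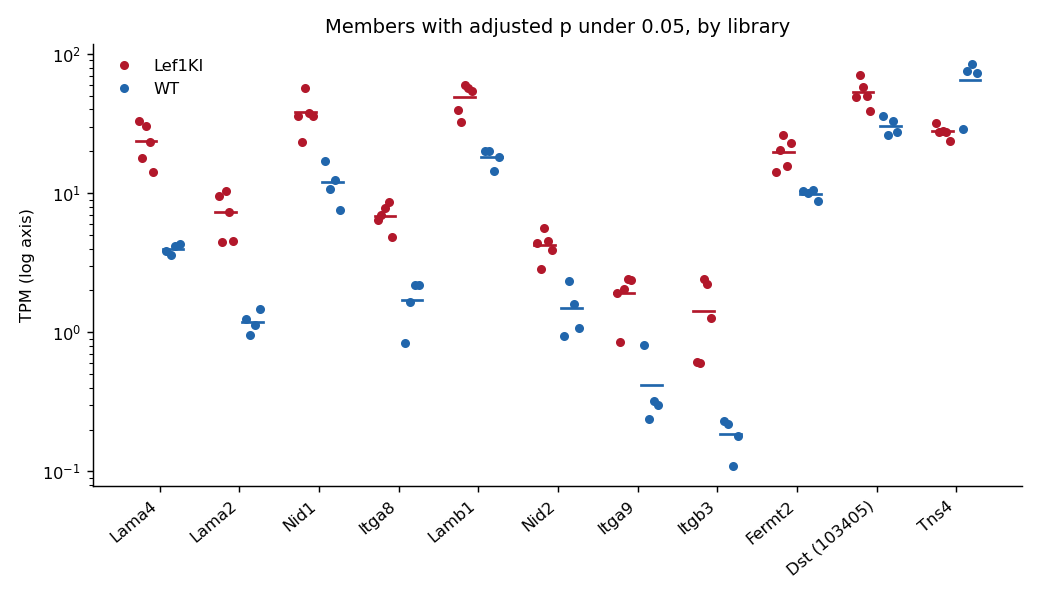
TPM on a log axis of the 11 members past the threshold, 1 point per library, Lef1KI (n = 5) on the left of each pair and WT (n = 4) on the right, bars at the group mean, ordered by difference. The groups do not overlap for any of the 10 members higher in Lef1KI; for Tns4, WT A at 29.1 TPM lies among the Lef1KI libraries.

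Lama3 was the most abundant alpha chain and Lamb3 the most abundant beta chain in every library. Lama3 (chr18:12333819-12583013) had 205, 158, 123, 144 and 161 TPM in Lef1KI and 216, 191, 219 and 136 TPM in WT, with libraries of both groups intermixed (log2 difference −0.26 ± 0.17 SE, limma adjusted p 0.38). Lamb3 (chr1:193207699-193343878) had 168, 291, 275, 197 and 311 TPM in Lef1KI and 272, 217, 229.5 and 169 TPM in WT (log2 difference 0.14 ± 0.20 SE, limma adjusted p 0.688). The groups overlapped for both, and the estimate of Lamb3, which was close to the median of all genes, turned negative with median centring and trimmed-mean scaling. Lama5, the alpha chain of the laminin common to most epithelia, had 33.2, 31.7, 27.6, 38.5 and 53.8 TPM in Lef1KI and 40.1, 43.8, 44.1 and 46.3 TPM in WT (log2 difference −0.27 ± 0.17 SE, limma adjusted p 0.365); Lef1KI E was the highest of all libraries and Lef1KI C the lowest. Lamb2 (log2 difference 0.44, adjusted p 0.299) and Lamc1 (0.21, adjusted p 0.229) did not pass in limma.

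TPM is scaled for transcript length, so the chains can be set beside each other. Of the summed TPM of the 4 alpha chains, Lama4 made up 10.6% ± 3.66 in Lef1KI (SD, n = 5) and 1.71% ± 0.405 in WT (SD, n = 4), and Lama2 made up 3.28% ± 1.41 in Lef1KI and 0.518% ± 0.176 in WT. Lama3 remained the main alpha chain, at 64.3% to 74.5% in Lef1KI and 72.3% to 82.7% in WT. Lamb1 made up 14.3% ± 3.49 of the beta chains in Lef1KI and 6.71% ± 1.26 in WT. The shares of Lama4, Lama2 and Lamb1 did not overlap between groups, whereas those of Lama3, Lama5, Lamb2 and Lamb3 did. Lama4 was between 2.89 and 3.99 times as abundant as Lama2 in Lef1KI libraries and between 2.98 and 3.77 times in WT libraries. These shares and ratios are descriptions with no test.

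**Figure D3:**
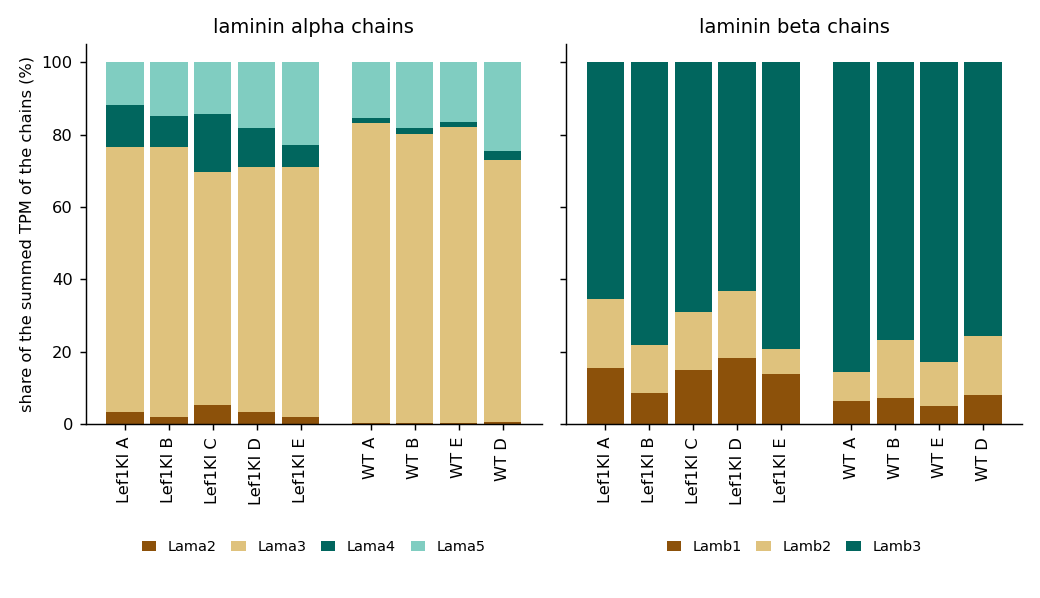
Share of each chain in the summed TPM of the laminin alpha (left) and beta chains (right), in percent, with 1 bar per library and Lef1KI left of WT. Lama4 takes 6.06% to 15.8% in Lef1KI and 1.47% to 2.31% in WT, Lamb1 takes 8.79% to 18.3% in Lef1KI and 5.19% to 8.15% in WT, while Lama3 and Lamb3 stay the main chains in every library.

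Both nidogens rose. Nid1, the main linker of laminin to collagen IV (chr13:13437551-13512269), had 36.2, 23.3, 57.3, 37.8 and 36.0 TPM in Lef1KI and 17.1, 10.7, 12.5 and 7.52 TPM in WT. The lowest Lef1KI library was B and the highest WT library was A, with no overlap (log2 difference 1.59 ± 0.26 SE, limma adjusted p 0.00446). Nid2, its paralog (chr14:19751265-19811787), had 4.42, 2.85, 5.61, 4.51 and 3.90 TPM in Lef1KI and 0.94, 2.35, 1.61 and 1.07 TPM in WT (log2 difference 1.09 ± 0.20 SE, limma adjusted p 0.00823). Both calls held whichever library was left out. The heparan sulfate proteoglycan genes Hspg2 and Agrn did not pass. Agrn, the most abundant of these linkers, had 61.9, 86.1, 90.4, 112 and 78.3 TPM in Lef1KI and 76.2, 90.2, 94.5 and 92.9 TPM in WT (log2 difference −0.066 ± 0.16 SE, limma adjusted p 0.818), and Hspg2 had 22.8 to 48.5 TPM in Lef1KI and 19.4 to 29.4 TPM in WT (log2 difference 0.36 ± 0.21 SE, limma adjusted p 0.309).

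Among 19 measured genes of other basement membrane proteins 6 rose and 1 fell, beside 6.73% and 1.24% of all genes. Their median difference was 0.30, beside 0.14 for all genes. Col4a2 had 143, 106, 199, 152 and 117 TPM in Lef1KI and 33.5, 26.0, 32.8 and 27.1 TPM in WT (log2 difference 2.20 ± 0.18 SE, limma adjusted p 9.3e-05). Col4a1, which encodes its partner chain in the collagen IV trimer, rose by 2.22 on the log2 scale (limma adjusted p 0.000104), and Sparc, a collagen-binding matrix protein, by 0.93 (adjusted p 0.00161). Libraries B and E were the lowest of the 5 Lef1KI libraries for Col4a1 and Col4a2. Papln, the gene of the matrix glycoprotein papilin, fell (log2 difference −0.70 ± 0.19 SE, limma adjusted p 0.0497). Col17a1, the hemidesmosomal collagen that binds laminin-332 and α6β4, which was chosen after seeing its values, had 262, 302, 257, 377 and 336 TPM in Lef1KI and 447, 310.1, 379 and 254 TPM in WT, which overlapped (log2 difference −0.16 ± 0.17 SE, limma adjusted p 0.585).

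Of the integrin alpha subunits, Itga8 and Itga9 rose and are of low abundance, while the abundant subunits Itga6 and Itga3 did not pass. Itga8, the partner of Itgb1 in a receptor for RGD ligands such as nephronectin and fibronectin (chr2:12106632-12301922), had 6.40, 6.93, 7.80, 8.58 and 4.85 TPM in Lef1KI and 0.84, 1.66, 2.20 and 2.18 TPM in WT. All 5 Lef1KI libraries exceeded all 4 WT libraries (log2 difference 1.55 ± 0.21 SE, limma adjusted p 0.00165). Itga9, the subunit of a receptor for tenascin-C and VCAM1 (chr9:118606690-118901003), had 1.92, 0.85, 2.06, 2.42 and 2.36 TPM in Lef1KI and 0.81, 0.24, 0.32 and 0.30 TPM in WT. The groups did not overlap, but WT A at 0.81 TPM was close to Lef1KI B at 0.85 TPM (log2 difference 1.03 ± 0.19 SE, limma adjusted p 0.00823). Both calls held whichever library was left out. By the authors' filter a gene needs a mean of 3 SD or more in one of the groups, which Itga9 reached in Lef1KI only. Npnt, the gene of the Itga8 ligand nephronectin, which was chosen after seeing its values, had 1.91, 2.33, 2.35, 1.91 and 4.97 TPM in Lef1KI and 1.85, 14.2, 3.71 and 13.6 TPM in WT, with WT B and D high and WT A and E within or near the Lef1KI range (log2 difference −1.06 ± 0.48 SE, limma adjusted p 0.209).

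Itga6, which pairs with Itgb4 in hemidesmosomes (chr2:71745616-71858416), had 166, 172, 195, 188 and 334 TPM in Lef1KI and 235, 232, 230.2 and 192 TPM in WT. Lef1KI E stood above all other libraries and the other 4 Lef1KI libraries lay at or below 195 TPM (log2 difference −0.12 ± 0.19 SE, limma adjusted p 0.717). Itga3, the laminin-332 receptor subunit of focal adhesions (chr11:95044474-95076801), had 129.5, 176, 265, 139 and 374 TPM in Lef1KI and 216, 221, 205 and 158 TPM in WT. The spread within Lef1KI was larger than the difference of the means, with libraries C and E above all WT libraries and A and D below (log2 difference 0.0083 ± 0.29 SE, limma adjusted p 0.988), and the estimate was negative with both scalings. Together Itga6 and Itga3 held most of the alpha subunit TPM, 35.0% to 45.6% and 33.8% to 47.5% in Lef1KI, against 44.3% to 47.6% and 37.8% to 43.7% in WT. Itgav, the alpha subunit of RGD receptors that activate latent TGF-beta, had 51.2, 53.2, 56.0, 49.8 and 56.0 TPM in Lef1KI and 30.5, 52.0, 51.0 and 50.2 TPM in WT, with WT A apart from the other WT libraries (log2 difference 0.24 ± 0.16 SE, limma adjusted p 0.371). The fibronectin receptor subunit Itga5 (log2 difference 0.54 ± 0.21 SE, limma adjusted p 0.158) and the collagen receptor subunits Itga1 (0.27, adjusted p 0.475), Itga2 (0.94, adjusted p 0.273), Itga10 (0.54, adjusted p 0.0999) and Itga11 (0.019, adjusted p 0.925) did not pass. Itga2 spanned 0.97 to 13.8 TPM in Lef1KI and 1.21 to 2.24 TPM in WT, with libraries C and E high. Itga10 passed in the fit without Lef1KI E. Itga7, a laminin receptor subunit of muscle, and Itgam, the leukocyte subunit, had differences of −0.18 and −0.063 and lay between 0.07 and 1.73 TPM in all libraries.

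Itgb3 was the only beta subunit to pass. It encodes the partner of Itgav and of the platelet subunit Itga2b (chr11:104608000-104670476), and had 0.61, 0.60, 2.43, 2.21 and 1.26 TPM in Lef1KI and 0.23, 0.22, 0.11 and 0.18 TPM in WT. The groups did not overlap, and within Lef1KI libraries C, D and E were above A and B (log2 difference 0.96 ± 0.23 SE, limma adjusted p 0.0279). When single libraries were left out the call held 4 of 9 times (differences between 0.81 and 1.09); it was lost without Lef1KI D, WT A, WT B, WT E or WT D. Itgb3 reached the 3 SD of the authors' filter in WT only. Itgb4, the hemidesmosomal beta subunit and the most abundant member of all 54 (chr11:115974709-116008412), had 226, 296, 347, 269 and 406 TPM in Lef1KI and 283, 274, 287 and 236 TPM in WT, which overlapped (log2 difference 0.17 ± 0.16 SE, limma adjusted p 0.536). Itgb1, the common partner of most alpha subunits (chr8:128685654-128733200), had 168, 180.2, 238, 196 and 287 TPM in Lef1KI and 198, 205, 215 and 206 TPM in WT, where the WT libraries fell inside the Lef1KI range (log2 difference 0.027 ± 0.15 SE, limma adjusted p 0.929); here too the estimate was negative with both scalings. Itgb4 made up 53.4% ± 1.32 of the beta subunit TPM in Lef1KI and 51.9% ± 3.14 in WT. The other beta subunits did not pass: Itgb5 (0.073, adjusted p 0.866), the epithelial TGF-beta activating subunit Itgb6 (0.48, adjusted p 0.488), Itgb8 (0.53, adjusted p 0.155), which passed without Lef1KI E, and the leukocyte subunit Itgb2 (0.43, adjusted p 0.406). Itgb6 had 9.40, 27.0, 37.3, 10.1 and 33.7 TPM in Lef1KI and 15.6, 19.4, 10.1 and 13.1 TPM in WT, so that Lef1KI A and D lay in or below the WT range and B, C and E above it.

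Integrin ligands outside the basement membrane changed in larger number. Of 21 measured, 11 rose and 1 fell, beside 6.73% and 1.24% of all genes, with a median difference of 0.89. Col1a1, Col1a2, Col3a1 and Postn of these 21 are also on the list of fibroblast markers. Col1a1, a fibrillar collagen chain, rose by 2.71 (limma adjusted p 0.000628), Col1a2 by 2.15 (adjusted p 0.0012) and the matrix protein gene Postn by 1.96 (adjusted p 0.00145). Tgfbi, which encodes a secreted integrin-binding matrix protein, fell (log2 difference −1.49 ± 0.39 SE, limma adjusted p 0.0399). Fn1, the ligand of Itga5 and Itga8, which was chosen after seeing its values, had 121, 102, 215, 123 and 119 TPM in Lef1KI and 46.2, 103, 60.9 and 70.0 TPM in WT; Lef1KI B was just below WT B and the other Lef1KI libraries were above all WT libraries (log2 difference 0.96 ± 0.25 SE, limma adjusted p 0.0414).

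Hemidesmosomal linkers and other laminin receptors did not pass, apart from 1 gene model named Dst. Plec, the plakin that ties integrin β4 to keratins (chr15:76170974-76232574), had 64.0, 70.3, 92.4, 60.2 and 89.0 TPM in Lef1KI and 39.7, 59.8, 69.3 and 55.5 TPM in WT (log2 difference 0.42 ± 0.18 SE, limma adjusted p 0.192). Lef1KI C and E were the highest and WT A was the lowest. Dst, the dystonin gene (ENSMUSG00000026131, chr1:33908225-34308661), had 99.0, 113, 124, 121 and 132 TPM in Lef1KI and 87.9, 109, 109 and 99.3 TPM in WT (log2 difference 0.22 ± 0.11 SE, limma adjusted p 0.274). The model ENSMUSG00000103405, which has the same symbol in the deposited table and no entry in GENCODE M21, had 48.9, 70.2, 57.8, 50.3 and 38.8 TPM in Lef1KI and 35.7, 26.2, 33.0 and 27.4 TPM in WT, without overlap (log2 difference 0.76 ± 0.17 SE, limma adjusted p 0.0199). Its call was lost with median centring (0.60, limma adjusted p 0.101), with trimmed-mean scaling (0.61, adjusted p 0.0909) and without Lef1KI C, WT B or WT D. The third model, ENSMUSG00000103888, had 0.49, 0.40, 0.50, 0.37 and 0.34 TPM in Lef1KI and 0.22, 0, 0.31 and 0.20 TPM in WT (log2 difference 0.27 ± 0.093 SE, limma adjusted p 0.109). The sharing of reads among the 3 models was not analysed here, so a difference of any of them is uncertain.

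Cd151, the tetraspanin that binds the laminin-binding integrins (chr7:141467392-141471473), had 97.4, 100.1, 117, 105 and 107 TPM in Lef1KI and 109, 125, 125 and 129 TPM in WT. Only Lef1KI C lay above the lowest WT library (log2 difference −0.21 ± 0.096 SE, limma adjusted p 0.21). It was lower with median centring (−0.37, limma adjusted p 0.0266), trimmed-mean scaling (−0.37, adjusted p 0.0224) and library weights (−0.27, adjusted p 0.0333), and in none of the other 13 alternatives named in the closing section. Bcam, the Lutheran glycoprotein that binds the Lama5 chain, had 123, 175, 125, 166 and 149 TPM in Lef1KI and 182, 188, 152 and 176 TPM in WT (log2 difference −0.25 ± 0.13 SE, limma adjusted p 0.275). Dag1, the dystroglycan gene whose glycans bind laminin globular domains (chr9:108204634-108263958), had 51.1, 69.6, 76.8, 72.5 and 68.9 TPM in Lef1KI and 65.9, 52.6, 45.6 and 54.1 TPM in WT. Lef1KI A was the lowest of its group and WT A the highest of its own (log2 difference 0.31 ± 0.14 SE, limma adjusted p 0.226), and the call was made with library weights (0.42, limma adjusted p 0.0289). Of 23 measured genes of the dystrophin-dystroglycan complex and of dystroglycan glycosylation 0 rose and 1 fell, beside 6.73% and 1.24% of all genes. In either direction 4.35% passed, beside 7.97% of all genes. In limma 5 had an unadjusted p under 0.05, beside 3169 of all 13336 genes. The median difference of the 23 was 0.22, beside 0.14 for all genes. The fall was Sntb1, a syntrophin gene, with 0.99, 1.42, 0.87, 1.67 and 1.05 TPM in Lef1KI and 3.27, 2.75, 1.84 and 2.51 TPM in WT (log2 difference −0.70 ± 0.16 SE, limma adjusted p 0.019).

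Kindlins and talins bind integrin beta tails and activate the receptor. Fermt2, the kindlin of most tissues (chr14:45458795-45530118), had 14.2, 20.3, 26.4, 15.6 and 23.0 TPM in Lef1KI and 10.4, 10.1, 10.48 and 8.74 TPM in WT. The groups did not overlap and the call held whichever library was left out (log2 difference 0.90 ± 0.19 SE, limma adjusted p 0.0141, differences between 0.80 and 1.01). Fermt1, the epithelial kindlin, had 4.38, 6.06, 5.22, 6.30 and 5.01 TPM in Lef1KI and 9.06, 5.85, 3.52 and 6.16 TPM in WT (log2 difference −0.11 ± 0.22 SE, limma adjusted p 0.775). The ratio of Fermt2 to Fermt1 lay between 2.47 and 5.06 in Lef1KI libraries and between 1.14 and 2.98 in WT libraries, an overlap that comes from Lef1KI D and WT E. Tln1, the broadly expressed talin (chr4:43531519-43562691), had 41.2, 51.5, 74.5, 48.4 and 67.6 TPM in Lef1KI and 33.1, 42.2, 39.9 and 40.3 TPM in WT; Lef1KI A lay just below the highest WT library and the other 4 above it (log2 difference 0.50 ± 0.17 SE, limma adjusted p 0.11). Without Lef1KI A its call was made (0.61, limma adjusted p 0.0351). Tln2 stayed between 1.00 and 2.11 TPM in all libraries (log2 difference 0.058).

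The scaffold and kinase members of the focal adhesion did not pass. Ilk, the integrin-linked pseudokinase (chr7:105736592-105742925), had 50.2, 56.9, 101, 54.6 and 96.2 TPM in Lef1KI and 59.5, 47.8, 51.0 and 40.8 TPM in WT. Lef1KI C and E were high and the other 3 Lef1KI libraries lay in the WT range (log2 difference 0.47 ± 0.23 SE, limma adjusted p 0.237). Ptk2, the focal adhesion kinase gene (chr15:73205102-73423280), had 13.4, 19.8, 25.2, 17.7 and 26.5 TPM in Lef1KI and 13.7, 15.5, 15.6 and 17.1 TPM in WT (log2 difference 0.35 ± 0.19 SE, limma adjusted p 0.29). Pxn, the paxillin gene (chr5:115506676-115555987), had 153, 128, 94.9, 96.2 and 126.3 TPM in Lef1KI and 143, 133, 125.6 and 101 TPM in WT (log2 difference −0.082 ± 0.16 SE, limma adjusted p 0.778). The groups overlapped for all of these, as they did for Parva, the actin-binding partner of Ilk (0.016, adjusted p 0.969).

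Of 46 measured partners in the focal adhesion 4 rose and 0 fell, a share close to the 6.73% of all genes. In limma 18 had an unadjusted p under 0.05, beside 3169 of all 13336 genes. The median difference of the 46 was 0.28, beside 0.14 for all genes. Apbb1ip, the Rap1 effector RIAM that brings talin to integrins, had 7.26, 4.40, 10.98, 6.48 and 4.56 TPM in Lef1KI and 0.74, 0.80, 0.89 and 0.77 TPM in WT. Its groups were far apart, with the lowest Lef1KI library at 4.40 TPM (log2 difference 2.04 ± 0.22 SE, limma adjusted p 0.000657). Zyx, the zyxin gene of mature adhesions, had 121, 134, 223, 124 and 182 TPM in Lef1KI and 92.8, 91.4, 84.4 and 84.1 TPM in WT (log2 difference 0.78 ± 0.18 SE, limma adjusted p 0.0218). Fyn, a kinase of the Src family, rose as well (log2 difference 0.94 ± 0.24 SE, limma adjusted p 0.0397). Nedd9, a scaffold of the Cas family chosen after its value was seen, was the remaining rise (log2 difference 0.69 ± 0.18 SE, limma adjusted p 0.0418).

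Tns4 was the only member to fall. It encodes the short tensin that binds integrin beta tails without the actin-binding region of the other tensins (chr11:99065678-99089306), and had 31.7, 27.7, 28.1, 27.6 and 23.9 TPM in Lef1KI and 29.1, 75.4, 84.8 and 73.4 TPM in WT. The 5 Lef1KI libraries were close together, whereas WT A was at their level and far below the other 3 WT libraries (log2 difference −1.11 ± 0.27 SE, limma adjusted p 0.0302). Without WT A the difference was −1.46 (limma adjusted p 0.000253). When single libraries were left out the call held 2 of 9 times, without Lef1KI A and without WT A, and the 9 differences lay between −1.46 and −0.95. Tns1 had 26.5, 14.9, 27.6, 26.0 and 18.9 TPM in Lef1KI and 8.21, 28.8, 16.6 and 33.2 TPM in WT, where WT A was again the lowest (log2 difference 0.20 ± 0.35 SE, limma adjusted p 0.752). Tns2 (log2 difference 0.79 ± 0.25 SE, limma adjusted p 0.0847) and Tns3 (0.22, adjusted p 0.535) did not pass. Tns4 took 31.4% ± 4.23 of the summed tensin TPM in Lef1KI and 55.8% ± 8.53 in WT. In WT A, where Tns4 was at the Lef1KI level, that share rests on a low tensin sum of 61.6 TPM, against 126.0 to 139.7 TPM in the other 3 WT libraries.

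The 3 remaining members share only the stem of an integrin name. Itgb1bp1, an adaptor that binds the β1 tail, had 25.8, 25.7, 30.7, 30.5 and 26.6 TPM in Lef1KI and 25.2, 23.7, 22.9 and 24.2 TPM in WT; the groups did not overlap, but the difference was close to the median of all genes and did not pass (log2 difference 0.20 ± 0.11 SE, limma adjusted p 0.29). Itgbl1, a secreted protein with integrin-like EGF repeats, had 12.8, 6.21, 10.4, 7.83 and 7.78 TPM in Lef1KI and 2.86, 7.05, 4.21 and 4.0 TPM in WT, where WT B exceeded Lef1KI B (log2 difference 0.87 ± 0.25 SE, limma adjusted p 0.0573). It passed without WT B. Itgb3bp, a centromere protein, did not pass (0.22, adjusted p 0.514).

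Abundance differed among the members. Of the 11 members with a mean of at least 100 TPM over all libraries, a limit set after the values were seen, 0 passed the threshold in limma, 1 had an unadjusted p under 0.05, and the differences lay between −0.26 and 0.22 with a median of 0.0083; among all genes at that level 6.01% passed, so 0 of 11 is near the background. Among the 11 were Itga3, Itga6, Itgb1, Itgb4, Lama3 and Lamb3. Of the 43 members under 100 TPM, 10 rose and 1 fell, with a median difference of 0.42, beside 8.17% of all genes under 100 TPM in either direction. With library weights 1 of the 11, Cd151, passed, as it did with both scalings.

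**Figure D4:**
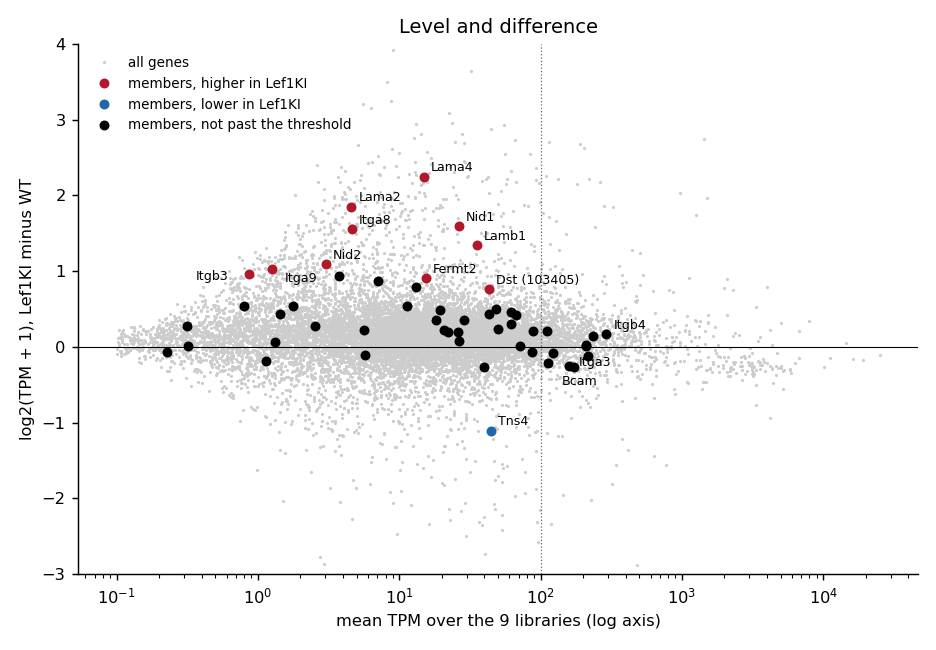
Difference between Lef1KI and WT on the log2(TPM + 1) scale against mean TPM over the 9 libraries (log axis), grey for all genes and coloured or black for the members reported by name, with a dotted line at 100 TPM; 24 genes beyond the limits of the vertical axis and 88 under 0.1 TPM are not drawn. The members to the right of the dotted line stay between −0.26 and 0.22, and all 11 members past the threshold lie to its left.

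Markers of fibroblasts and of endothelial cells were mostly higher in Lef1KI. Those of smooth muscle, pericytes and glia did not pass. Of 14 measured fibroblast and stromal markers (16 listed) 11 rose and 0 fell, beside 6.73% and 1.24% of all genes, with a median difference of 2.06. Their summed level was 3788, 2002, 4269, 3403 and 1518 TPM in Lef1KI and 398, 805, 605 and 1064 TPM in WT. Without the abundant matrix gene Mgp the sums were 733, 543, 1108, 933 and 350.4 TPM in Lef1KI and 102, 129, 143 and 166 TPM in WT. None of the 14 was at 0 in any library. Lef1KI B and E had the lowest sums of their group, with and without Mgp, and the lowest Lama4 and Lama2. For Nid1 library B was lowest and A, D and E were alike, while for Itga8 library E was lowest and A next. Lamb1 had 54.7 TPM in Lef1KI E, above 39.9 TPM in A and 32.8 TPM in B. Fermt2 was lowest in Lef1KI A.

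Of 15 endothelial markers listed 11 were measured, and Tie1, Cldn5, Robo4 and Vwf had no row. Of the 11, 7 rose and 0 fell, beside 6.73% and 1.24% of all genes, with a median difference of 1.77. Their summed level was 47.9, 50.1, 119, 136 and 93.8 TPM in Lef1KI and 33.9, 29.1, 23.6 and 25.1 TPM in WT. The defining genes Cdh5 and Pecam1 had 3.57 to 16.4 and 1.75 to 7.71 TPM in Lef1KI and 0.25 to 1.70 and 0.27 to 0.65 TPM in WT. The other 4, Egfl7, Flt1, Tek and Esam, did not pass and their groups overlapped. The estimate for Esam was negative (log2 difference −0.74 ± 0.44 SE, limma adjusted p 0.321). A large part of the sums was Egfl7, with 14.7 to 51.1 TPM in Lef1KI and 9.11 to 22.4 TPM in WT. The endothelial sums and Itgb3 had the same grouping of Lef1KI libraries, with C, D and E high and A and B low. Of 10 leukocyte markers listed 4 were measured, and Ptprc, Csf1r, Cd3e, Cd79a, Tyrobp and Laptm5 had no row. Of the 4, 2 rose and 0 fell, beside 6.73% and 1.24% of all genes. Their sums were 58.3 to 244 TPM in Lef1KI and 111 to 259 TPM in WT. Most of each sum was Cd68, which did not pass (log2 difference −1.18 ± 0.44 SE, limma adjusted p 0.136), and the 2 that rose, Lyz2 and Coro1a, had 4.46 to 12.2 and 0.35 to 0.78 TPM in Lef1KI and 0.31 to 3 and 0 to 0.23 TPM in WT. Coro1a and Adgre1 were at 0 in at least 1 library. Smooth muscle and pericyte markers (4 measured of 10 listed) and glial markers (4 measured of 8 listed) gave 0 calls in limma, and their sums overlapped between groups. An unadjusted p under 0.05 in limma was reached by 3 and 1 of them, beside 3169 of all 13336 genes. The part of these markers in the differences of the members was not tested.

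**Figure D5:**
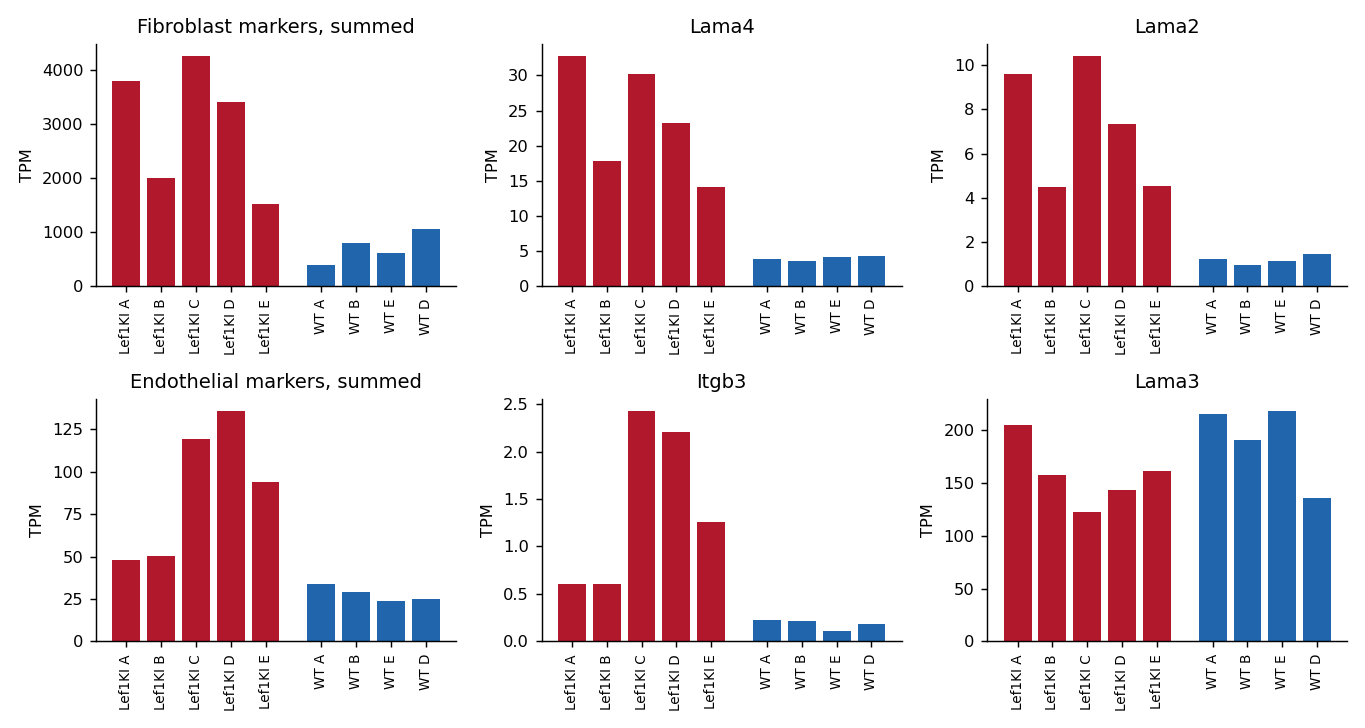
TPM per library (1 bar each, Lef1KI left of WT) of the summed fibroblast markers, Lama4 and Lama2 in the upper row, and of the summed endothelial markers, Itgb3 and Lama3 in the lower row. Lama4 and Lama2 are lowest in libraries B and E of Lef1KI, where the fibroblast sum is also lowest. Itgb3 is highest in C and D as the endothelial sum is, and Lama3 overlaps between the groups. In WT A, B, E and D the fibroblast sum is 398, 805, 605 and 1064 TPM, and Lama4 is 3.83, 3.58, 4.16 and 4.35 TPM. Not drawn are Itga8, lowest in Lef1KI E and next in A, Lamb1, lowest in B and next in A, and Fermt2, lowest in A. A link between markers and members was not tested.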

How the data were processed

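The authors deposited 1 table of log2(TPM + 1) values for 9 libraries, made with RSEM on the mm10 build per the submitters' processing notes; versions, aligner, annotation and depth: not given in the sources used here. Back-transforming the values, as a check of the unit, gave TPM with 2 decimals throughout the range under 50 TPM (100% of values, to within 0.01 of the last decimal). The authors' filter, from the values, kept genes with a mean of at least 3 SD in at least 1 group (or 0 in every library of a group, 16 genes). It was met in Lef1KI only by 3 members (Itga9, Itga10, Dst ENSMUSG00000103888) and in WT only by 5 (Itga2, Itga11, Itgam, Itgb2, Itgb3). Of the 46 members that met it in both groups 8 rose and 1 fell, beside 6.73% and 1.24% of all genes.

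Columns carry letters that no label ties to replicate numbers, so they were assigned to groups by name. No 2 libraries held the same values (at most 92 equal values in a pair). Each library is a pool of mice, so p-values measure the spread between pools. The fit was limma 3.58.1 (R 4.3.3), with the variance trended on intensity, group as its only term, on all 13336 genes and without a further filter; its two-sided p-values were adjusted by Benjamini-Hochberg over the whole table, and the script was tested on simulated data. Count models, planned for a count table, could not be used on TPM; the alternatives run are in the closing section. Positions are from GENCODE M21, in which 13280 gene IDs were found; promoters are from RefSeq. One member, included in the counts, is not reported here by itself. Symbols in older use in the table were matched by hand. The members and lists were chosen with earlier results of these data known. Values in every library are given for members past the threshold, for a list of fixed members and for the most abundant member of each role, and from each partner list up to 3 called genes per direction are named. Library values of other members were added after they were seen, as were other genes where marked.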

Additional observations from a re-analysis of the deposited data

Results flagged for a closer look

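Of the 108 groups of libraries (54 members in 2 groups) 8 held a library whose gap to its nearest neighbour, as a share of the group's range on the log2 scale, exceeded Dixon's 95% critical value, where chance flags about 1 group in 20. Library WT A was apart in 3 of them: Tns4 at 29.1 TPM beside 73.4 to 84.8 TPM in the other WT libraries, Itgav at 30.5 TPM beside 50.2 to 52.04 TPM, and Itga9 at 0.81 TPM beside 0.24 to 0.32 TPM. Lef1KI E was high for Itga6, at 334 TPM beside 166 to 195 TPM, and for Itgb3bp, at 8.85 TPM beside 5.27 to 5.78 TPM. Itga6 was also low in WT D, at 192 TPM beside 230.2 to 235 TPM. Itga9 was low in Lef1KI B, at 0.85 TPM beside 1.92 to 2.42 TPM, and Dag1 was low in Lef1KI A, at 51.1 TPM beside 68.9 to 76.8 TPM.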

How the results depend on the processing

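The 16 alternatives were median centring, trimmed-mean scaling, a pseudocount of 0.1, only genes with a mean of at least 1 TPM, no intensity trend, a robust variance prior, library weights, and leaving out each of the 9 libraries. Lama4, Lama2, Lamb1, Nid1, Nid2, Itga8, Itga9 and Fermt2 kept their call in every one of them. None of the 16 lifts the authors' filter, which Itga9 met in Lef1KI only. Itgb3 could not be fitted under the 1 TPM filter. With 10 members higher as deposited, the count was 8 to 12 over the fits without a library and 9 to 11 otherwise. The count of members lower was 2 with median centring, trimmed-mean scaling and library weights (Cd151 added) and 0 to 1 without a library. All genes changed numbered 2334 with library weights and 628 to 1686 without a library (628 without WT E, 643 without WT B, 1686 without Lef1KI A), beside 1063. Genes of the 4 partner lists numbered 21 higher and 3 lower as deposited, 14 to 28 higher and 0 to 4 lower without a library, and 6 lower with library weights. Positive members numbered 35 of 54 with either scaling, beside 43, and no called member changed sign in any of the 16. Among members chosen by the naming rule, uncalled differences near 0 changed sign: Itga3 to −0.15 with median centring, −0.15 with trimmed-mean scaling and −0.10 with library weights; Itgb1 to −0.13, −0.13 and −0.071; and Lamb3 to −0.018 and −0.014 with both scalings. Without a library Itga3 lay between −0.22 and 0.16, Itgb1 between −0.085 and 0.11 and Agrn between −0.17 and 0.043. The cause was not tested. TPM values carry no depth, so counting error of genes under 1 TPM, such as Itgb3 in WT, is unknown. No label says that a column letter pairs libraries. A replicate block on the letters, chosen after seeing the data, gave 6 members higher and 0 lower, 484 genes changed, 13 partner genes higher and 0 lower, with Itga3 at −0.094 and Itgb1 at −0.019; Dst ENSMUSG00000103405, Fermt2, Itgb3, Nid2 and Tns4 did not pass in it. The correlation of deviations from the group means, across genes, was −0.26, 0.02, 0.26 and −0.15 for same-letter libraries A, B, D and E. Of the 4 WT libraries 1 (D) correlated best with its own letter. Correlations of so few libraries cannot decide whether a letter pairs them.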

Other observations

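Within Lef1KI, libraries C and E stood above A, B and D for several epithelial and focal adhesion members, a grouping seen after the values were examined. Itga3 had 265 and 374 TPM in C and E, and 130 to 176 TPM in the other 3; Ilk had 101 and 96.2 TPM, and 50.2 to 56.9 TPM; Itgb1 had 238 and 287 TPM, and 168 to 196 TPM; and Itga2, a collagen receptor subunit, had 7.09 and 13.8 TPM, and 0.97 to 3.16 TPM. The summed level of the 46 focal adhesion partners was 3647, 4195, 5355, 3572 and 5403 TPM in Lef1KI A to E and 3893, 3684, 3749 and 3227 TPM in WT A, B, E and D. Pxn and Lama3 went another way, each lowest in C within Lef1KI, at 94.9 and 123 TPM. The trimmed-mean scaling factors of C and E were 1.12 and 1.14, against 0.953, 1.00 and 1.04 in A, B and D. The part of this scaling in the grouping was not tested. Libraries C and E differed from each other in the stromal markers, which were highest in C and lowest in E. Of the members that rose, Itga8 was highest in D and lowest in E, and Lama4 was highest in A and lowest in E.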
